A study of Mus musculus with 12 samples.

Results

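The baseline transcriptome of untreated mouse embryonic fibroblasts was described from RNA sequencing of 4 libraries, out of 12 in the study. The 4 were chosen by their label as untreated, and no value of a treated library enters any result here. The other libraries came from the same kind of cell exposed to apigenin or chrysin, plant flavones, at 50 µM. The untreated cells were kept in control medium to the same 24 h time point. The sources used here do not say whether it contained the flavones' solvent. The cells carried no stated genetic change, and the strain, the age of the embryos and the number of embryos pooled are not given either. They were grown in flasks and used up to the fifth passage, the limit after which, per the labels, growth slows. The values describe adherent cells in culture, not the tissue they came from.

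Mouse embryonic fibroblasts are the adherent cells that grow out when a midgestation embryo is minced and plated. They come mainly from the connective tissue of the body wall and limbs. In the embryo such mesenchymal cells lay down collagen and other matrix, pull on it through actin and myosin, send growth signals to the epithelia next to them, and keep a code of HOX genes that records where along the body they arose. Serum and a stiff culture surface are known to turn on part of their wound response.

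The 4 libraries, replicates 1 to 4 as labelled, held 4865169, 9664688, 11660307 and 12871962 reads assigned to genes, recovered from the steps between the deposited values. A gene's level is the mean of its 4 deposited log2 values, each the log2 of a normalized read count plus 1. Errors are standard deviations over the 4 libraries (SD, n = 4), and they cover whatever differs between these samples, which may be technical, since nothing in the labels says that they came from separate cultures. A gene with 0 reads could have up to 3 by counting error alone, which is a normalized count of 5.13 in replicate 1 and of 1.91 in replicate 4. Every pair of libraries differed by more than sampling noise, with a chi-square per degree of freedom of 3.23 to 7.74 and Pearson's r across the expressed genes of 0.975 to 0.988, so none was the same library deposited again. Replicate 1, the shallowest, stood apart in several gene groups, and replicate 4 held a few genes far above the other libraries. Both are given beside the results they touch. Where levels of different genes are compared, the normalized count was divided by the merged exon length of the gene and scaled to transcripts per 1000000 (TPM). With 1 group there is no contrast to test. For the order of a pair of genes over 4 libraries, an exact sign-flip test (two-sided) cannot go below p = 0.125, so orders are given with the number of libraries that show them.

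Of 24458 listed genes, 12168 (49.8%) averaged a normalized count of 10 or more and count as expressed. They took 99.9% of the counts. The number of expressed members in each family below is to be read against the 49.8% of all genes. In bulk RNA, fewer cells of a type and less RNA per cell cannot be told apart. No read was found for 8080 genes (33.0%) in any of the 4 libraries, and 13517 genes had a read in every library. The expressed genes comprised 11869 protein-coding genes, 225 long noncoding RNAs and 47 transcribed pseudogenes. Their median level was 7.92, against 3.26 over all listed genes, and their median abundance was 25.1 TPM. The 65 genes that averaged a normalized count of 10000 or more, 0.266% of those listed, held 17.3% of the counts. The 10 genes with the highest levels held 7.02% ± 0.117 of the counts in a library, and the 100 highest held 20.9% ± 0.0808. Libraries agreed closely for abundant genes: the median SD of the log2 level was 0.08 among 1851 genes with a mean count of at least 1000, and 0.33 among genes with a mean count of 10 to 100.

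**Figure D1:**
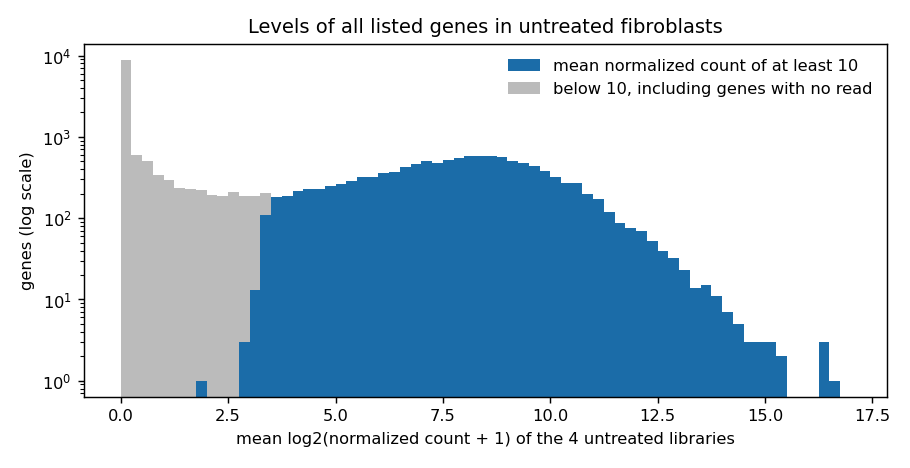
Number of genes (log scale) by mean log2 level over the 4 untreated libraries, with the 12168 expressed genes in blue and the others in grey. The tall first bar holds the 8080 genes with no read, and 4 genes stand alone at the right, above a level of 16.

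Genes of the extracellular matrix led the table by reads. Thbs1, thrombospondin 1, a matrix glycoprotein that can release TGF-beta from its latent form, had the highest level, at 16.44, 16.63, 16.66 and 16.69 in replicates 1 to 4. Fn1, fibronectin, the fibre-forming ligand of cell surface integrins, was listed at 16.19, 16.54, 16.60 and 16.64. Bgn, biglycan, a small leucine-rich proteoglycan of the matrix, had 16.50, 16.42, 16.36 and 16.29. Thbs1 and Fn1 were lowest in replicate 1 and Bgn was highest there, so the order of the 3 depended on the library. Eef1a1, the elongation factor that brings tRNA to the ribosome, followed at 16.45, 16.28, 16.30 and 16.33. No other gene reached a level of 16. Next came Vim, vimentin, the intermediate filament protein by which mesenchymal cells are recognised, at 15.40, 15.46, 15.48 and 15.47, a spread of 0.03.

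These levels are not scaled for gene length, and long messages collect more reads. Of the 30 highest genes, many code for proteins that leave the cell. They were the collagen chains Col1a1 (15.32 ± 0.11), Col1a2 (15.08 ± 0.07), Col5a2 (14.70 ± 0.08) and Col3a1 (13.93 ± 0.07), the collagen crosslinking enzyme Lox (15.02 ± 0.06), the collagen-binding protein Sparc (14.80 ± 0.03), the protease inhibitors Timp2 (14.65 ± 0.11) and Timp3 (14.13 ± 0.07), the elastic fibre protein Fbln2 (14.13 ± 0.06), the secreted protein Fstl1 (14.13 ± 0.09), the matrix protein Ccdc80 (14.06) and the growth factor Igf2 (13.96 ± 0.28). A second set builds or anchors the cytoskeleton: Cald1, caldesmon, which binds actin and tropomyosin (15.16 ± 0.09), beta-actin Actb (14.47 ± 0.04), the spectrin chain Sptbn1 (13.99) and the matrix receptor chain Itgb1 (14.02 ± 0.04). The remaining genes of the 30 were the chaperone Hsp90ab1 (14.78 ± 0.07), the ubiquitin ligase Nedd4 (14.77 ± 0.05), the elongation factor Eef2 (14.66 ± 0.03), the lysosomal protease Ctsd (14.37 ± 0.06), the lysosomal membrane protein Lamp1 (14.35 ± 0.06), the calcium-binding chaperone Calr (14.31 ± 0.09), the poly(A)-binding protein Pabpc1 (14.26), the amyloid precursor protein App (14.02) and the calcium-binding protein S100a11 (14.00 ± 0.12). Igf2 had the widest spread among them, with 14.36 in replicate 1 and 13.73 to 13.95 in the other libraries.

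**Figure D2:**
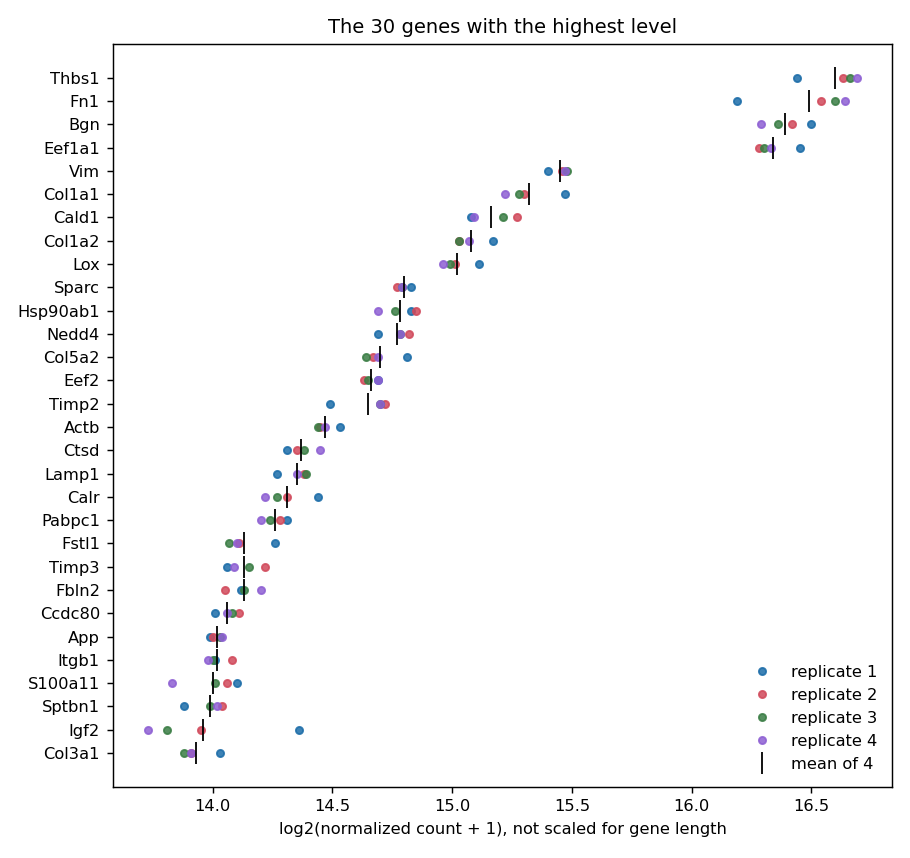
Log2 level, not scaled for gene length, of the 30 genes with the highest mean in untreated fibroblasts, with 1 point per library and a black bar at the mean of 4. Thbs1, Fn1, Bgn and Eef1a1 lie above 16, and Igf2 shows the widest spread, with replicate 1 at 14.36.

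Per length, short messages moved to the front. Eef1a1 held 12962 ± 530.2 TPM and S100a11 12519 ± 819.5 TPM, with Eef1a1 the higher in 3 of 4 libraries, so their order was not settled. Bgn followed with 9405 ± 405 TPM, Vim with 7482 ± 313 TPM and Thbs1 with 6411 ± 589 TPM. B2m, the light chain of class I histocompatibility molecules, held 5900.1 ± 535 TPM, and Lgals1, galectin 1, a sugar-binding protein secreted by mesenchymal cells, held 5787 ± 213 TPM. B2m was the higher of the pair in 2 of 4 libraries, and the neighbours do not differ beyond their spread. S100a4, also known as fibroblast-specific protein, had 5019 ± 486 TPM, close to the ribosomal protein gene Rps26 at 4978 ± 103 TPM. Fn1 came after these with 4343 ± 648 TPM. The iron store Fth1 (4161 ± 272 TPM), the ribosomal protein gene Rps12 (4086 ± 283 TPM) and the actin-severing protein cofilin, Cfl1 (4012 ± 135 TPM), were next. Hsp90ab1 (3659 ± 133 TPM), Lamp1 (3604 ± 197 TPM), Rps24 (3399 ± 191 TPM), Actb (3305 ± 57.8 TPM), Sparc (3289 ± 50.2 TPM), Rplp1 (3286 ± 338 TPM) and Ctsd (3282 ± 189 TPM) closed the 20 highest, and from Rps24 on, neighbours lay closer together than their SDs.

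Promoters of expressed genes and of genes with no read differed in base composition. The bases before the start of 5 expressed genes are printed here, followed by those of 3 genes of differentiated tissues that had no read, so that the letters can be compared. The 5 are Vim (chr2:13574211-13574310), S100a11 (chr3:93520396-93520495) and Bgn (chrX:73483501-73483600), all on the plus strand, Eef1a1 (chr9:78481725-78481824, minus strand) and Hoxd13 (chr2:74668125-74668224, plus strand), the most abundant HOX gene here. The 3 silent genes are Alb, serum albumin of liver (chr5:90460770-90460869, plus strand), Ckm, the creatine kinase of muscle (chr7:19410994-19411093, plus strand), and Myh6, a heart myosin (chr14:54966608-54966707, minus strand). Each line gives the 100 bases upstream of the start in the direction of the gene, from RefSeq on GRCm38.p6, a later build than the mm9 of the expression files. Capitals mark a TATA box, searched as TATAAA on the gene's strand, or a GC box, searched as GGGCGG and, for the other strand, CCGCCC. Repeats of a GC box may overlap.
Vim: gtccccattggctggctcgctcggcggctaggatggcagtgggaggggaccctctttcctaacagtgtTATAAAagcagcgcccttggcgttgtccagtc
S100a11: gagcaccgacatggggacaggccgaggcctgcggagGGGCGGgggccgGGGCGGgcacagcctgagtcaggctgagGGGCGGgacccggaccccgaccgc
Bgn: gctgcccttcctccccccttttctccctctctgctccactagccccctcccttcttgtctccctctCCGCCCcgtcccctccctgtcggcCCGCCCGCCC
Eef1a1: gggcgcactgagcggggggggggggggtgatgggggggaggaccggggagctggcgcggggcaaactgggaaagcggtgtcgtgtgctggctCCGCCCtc
Hoxd13: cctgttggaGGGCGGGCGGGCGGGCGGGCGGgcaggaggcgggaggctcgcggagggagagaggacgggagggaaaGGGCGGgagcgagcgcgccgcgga
Alb: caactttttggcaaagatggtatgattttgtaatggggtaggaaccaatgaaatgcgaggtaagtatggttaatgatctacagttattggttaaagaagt
Ckm: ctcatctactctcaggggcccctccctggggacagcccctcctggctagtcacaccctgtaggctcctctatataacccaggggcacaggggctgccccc
Myh6: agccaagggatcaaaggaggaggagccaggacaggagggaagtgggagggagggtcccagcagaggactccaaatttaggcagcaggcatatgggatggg

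In these 100 bases Hoxd13 held 6 GC boxes, S100a11 and Bgn 3 each and Eef1a1 1. Vim held none and carried TATAAA 32 bases before its start. Alb, Ckm and Myh6 held neither motif as searched. Only exact letters were marked, so near matches such as the tatataa in the Ckm line stayed in lower case and were not counted. Over 250 bases upstream, 61.6% of 9712 promoters of expressed genes held a GC box, as did 12.6% of 5435 promoters of genes with no read and 32.9% of all 27025 promoters in the table. TATAAA between 45 and 15 bases before the start was found in 1.11% of the promoters of expressed genes, in 5.63% of those of genes with no read and in 2.36% of all. The median number of CpG dinucleotides in the 250 bases was 16.0 for expressed genes, 2.00 for genes with no read and 6.00 over all promoters. Among the 100 genes with the highest levels, 74 had a promoter in the table, 59.5% of these held a GC box and 1.35% held TATAAA. A match of letters describes the window and is no evidence that a factor binds there.

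Of 44 collagen chain genes, 28 (63.6%) were expressed, against 49.8% of all genes, and together they held 8818 ± 219 TPM, which is 0.882% of transcripts. Type I collagen, the main fibre of skin and bone, led with 2426 ± 139.8 TPM for Col1a1 and 1107 ± 36.5 TPM for Col1a2. The ratio of the pair was 2.28, 2.24, 2.20 and 2.05 in replicates 1 to 4. Their levels, not scaled for length, were closer, at 15.32 ± 0.11 and 15.08 ± 0.07, so the ratio depends on the exon lengths used. The type I triple helix holds more of the first chain than of the other, but a ratio of transcripts does not measure protein chains. Of the type V chains, which start thin fibrils, Col5a2 (1083 ± 40.9 TPM) lay above Col5a1 (595 ± 35.3 TPM) in 4 of 4 libraries. Type III, the fibre of soft tissue, was represented by Col3a1 at 724 ± 21.8 TPM. Among the microfibril chains Col6a1 held 641 ± 29.2 TPM and Col6a2 281 ± 6.66 TPM. Their unscaled levels were likewise closer, at 12.82 ± 0.09 and 12.55 ± 0.06. The basement membrane chains Col4a1 (265 ± 25.7 TPM) and Col4a2 (260.1 ± 17.9 TPM), which share a promoter region and are read in opposite directions, stood at a ratio of 1.02 ± 0.0407. Col8a1, a chain of short network collagen, held 387 ± 10.1 TPM, and the fibril-associated Col12a1 held 369 ± 10.2 TPM. Cartilage chains were lower but present, with Col11a1 at 143 ± 3.52 TPM, Col10a1 at 171 ± 13.1 TPM and Col2a1 at 9.46 ± 1.77 TPM. Col10a1 lies inside Nt5dc1 on the opposite strand, so its value is uncertain. Col26a1 was the 1 collagen gene listed at 0.

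The genes that modify and fold collagen were expressed nearly as a whole, 27 of 28, at 8759 ± 209 TPM, close to the sum of the chains. This closeness depends on length scaling: without it the list held 0.947% of reads, against 2.25% for the chains. Lox, which crosslinks collagen and elastin outside the cell, held 2752 ± 71.3 TPM and exceeded its relative Loxl1 (459.8 ± 20.5 TPM) by 5.99 ± 0.220 times. P4hb, a subunit of the prolyl hydroxylase that stabilises the helix, held 1329 ± 36.1 TPM, the prolyl isomerase Ppib 1038 ± 17.2 TPM and the collagen chaperone Serpinh1 735 ± 71.8 TPM. Pcolce, which helps to cut off the propeptide, held 447 ± 33.5 TPM.

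All 20 genes of the elastic fibre list were expressed, at 5014 ± 102 TPM. Efemp1 (1287 ± 147 TPM) and Fbln2 (1186 ± 65.1 TPM), fibulins that organise the fibre, led the list, ahead of Efemp2 (329 ± 33.2 TPM). The core protein elastin, Eln, held 311 ± 60.7 TPM, with a level of 11.42 in replicate 1 and 10.84 to 10.87 in the others. The microfibril protein Fbn1 held 291 ± 18.7 TPM, and Fbn2, its embryonic relative, 42.6 ± 5.74 TPM. Efemp1 and Fbln2 lay above elastin beyond their spread, while Efemp2 and Fbn1 did not differ from it by more than the SDs.

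Matrix glycoproteins formed the largest secreted group, with 32 of 38 genes expressed at 22543 ± 2143 TPM. The sum was 19386 TPM in replicate 1 and 23039 to 23986 TPM in the others, so the lowest library lay outside the range of the rest. Thbs1 alone exceeded its relative Thbs2 (294 ± 12.4 TPM) by 21.8 ± 1.79 times. Sparc was the steadiest of the leading members. Spp1, osteopontin, a phosphoprotein of bone and of injured tissue, held 1889.8 ± 640.3 TPM and was the least steady, at a level of 11.98 in replicate 1 and 13.22, 13.17 and 13.14 in replicates 2 to 4. Igfbp7, a binder of insulin-like growth factors, held 1234 ± 103 TPM, Ctgf, a target of TGF-beta and YAP, 1016 ± 103 TPM, and its relative Cyr61 742 ± 38.1 TPM. The wound-associated proteins Postn (311 ± 4.91 TPM) and Tnc (306 ± 15.9 TPM) did not differ beyond their spread, and Fn1 exceeded Tnc by 14.3 ± 2.56 times. Vtn, the serum glycoprotein vitronectin made by liver, and Tnr, a tenascin of the nervous system, were listed at 0, as were Igfbp1 and Wisp3.

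Of 28 proteoglycan genes 23 were expressed, at 15088 ± 303 TPM, and Bgn supplied most of that sum. Its close relative Dcn, decorin, held 293 ± 22.9 TPM, and Bgn exceeded it by 30.3, 33.9, 32.0 and 32.6 times in replicates 1 to 4. Aspn (1436 ± 69.5 TPM) and Ogn (1284 ± 183 TPM), other small leucine-rich proteoglycans, came next, while Fmod (301 ± 37.2 TPM) and Lum (69.6 ± 6.14 TPM), which control the width of collagen fibrils, were lower. The cell surface proteoglycans Sdc2 (644 ± 31.4 TPM) and Gpc4 (353 ± 28.3 TPM) present growth factors to their receptors. Vcan, the large proteoglycan of loose mesenchyme, held 56.0 ± 1.33 TPM. The nervous system proteoglycan Ncan was listed at 0.

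Basement membrane genes were less prominent. Of 11 laminin chains 8 were expressed, at 554 ± 13.4 TPM, led by Lamb2 (223 ± 8.61 TPM), Lamc1 (133 ± 3.35 TPM) and Lamb1 (103 ± 4.63 TPM). Lama4 (39.2 ± 1.57 TPM) was the most abundant alpha chain. Lama1, the alpha chain of early epithelia, did not count as expressed, with 3, 2, 1 and 9 reads in replicates 1 to 4. Lamb2 exceeded Lamb1 by 2.16 ± 0.0422 times.

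Proteases of the matrix and their inhibitors were both present. Of 23 matrix metalloprotease genes 12 were expressed, near the share over all genes, at 1918 ± 75.4 TPM. Mmp14, the membrane-anchored protease that activates gelatinase A, held 1343 ± 63.8 TPM, and Mmp2, gelatinase A itself, 302 ± 9.46 TPM, followed by Mmp11 (91.3 ± 13 TPM). Mmp9, the gelatinase of leukocytes, had 0, 0, 3 and 2 reads. Mmp3, stromelysin, was lower in replicate 1 (5.61) than in replicates 2 to 4 (7.27, 7.28 and 7.23). Mmp7, Mmp20, Mmp1a and Mmp21 were listed at 0. The inhibitors outweighed the proteases in summed abundance, with 4056 ± 294 TPM for 3 expressed TIMP genes of 4. Timp2, which also takes part in the activation of gelatinase A by Mmp14, held 2580.1 ± 229.7 TPM and exceeded Mmp14 by 1.93 ± 0.214 times. Timp3, which binds to the matrix, held 859 ± 49.0 TPM, and Timp1 held 615 ± 40.3 TPM.

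The receptors for matrix and the junctions between cells followed a mesenchymal pattern. Of 26 integrin genes 20 were expressed, at 2296 ± 70.8 TPM. The common beta chain Itgb1 held 1580.3 ± 51.1 TPM and exceeded Itgb5 (314 ± 25.6 TPM) by 5.06 ± 0.379 times. Among alpha chains, Itga5, the fibronectin receptor, held 128 ± 5.77 TPM, Itgav, the vitronectin receptor chain, 81.5 ± 1.47 TPM, and Itga11, a collagen receptor of fibroblasts, 76.9 ± 3.41 TPM. Of 23 cadherin genes 11 were expressed (47.8%, near the 49.8% of all genes). Cdh11, the cadherin of mesenchyme, held 816 ± 12.6 TPM, and Cdh2, N-cadherin, 151 ± 2.60 TPM, followed by Cdh13 (39.2 ± 4.14 TPM). E-cadherin, Cdh1, which holds epithelia together, had 0, 1, 0 and 1 reads. Gap junctions rested on 1 gene: Gja1, the main connexin of fibroblasts, held 1020.5 ± 44.4 TPM, while the other expressed connexins, Gjc1, Gjb2 and Gja3, held 10.4 ± 2.55, 9.67 ± 1.99 and 4.63 ± 1.52 TPM. The remaining 16 of 20 connexin genes did not count as expressed, and 8 of them were listed at 0, Gjb1 of liver among them.

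The contractile machinery was strongly expressed. All 24 genes of the contractile list, many of them known targets of the serum response factor SRF, were expressed, at 18030.3 ± 615 TPM. Per length, beta-actin and smooth muscle alpha-actin were about equally abundant: Acta2 held 3249 ± 247 TPM and Actb 3305 ± 57.8 TPM. Their ratio was 1.07, 0.938, 0.951 and 0.969 in replicates 1 to 4. Their levels, not scaled for length, lay further apart, at 13.86 ± 0.13 for Acta2 and 14.47 ± 0.04 for Actb. The ratio thus depends on the exon lengths used. Actg1, the other nonmuscle actin, held 1704 ± 100.3 TPM. Skeletal alpha-actin Acta1 (54.3 ± 8.52 TPM) and enteric actin Actg2 (72.7 ± 3.33 TPM) were low, and the cardiac Actc1 had 1 read in replicate 1 and none in the others. The light chain Myl6 held 2548 ± 254 TPM, Cald1 1859 ± 132 TPM, and Tagln, transgelin, an actin-bundling protein of smooth muscle and myofibroblasts, 1813 ± 92.4 TPM. The 4 tropomyosin genes, which coat the actin filament, were all expressed, with Tpm4 at 923 ± 76.2, Tpm1 at 814 ± 60.4 and Tpm2 at 759 ± 33.6 TPM, and Tpm3 well below them at 278 ± 14.6 TPM. Of 14 conventional myosin heavy chains 4 were expressed, led by the nonmuscle chains Myh9 (433 ± 3.70 TPM) and Myh10 (137 ± 7.95 TPM). Smooth muscle myosin, Myh11, was far lower, at 15.4 ± 2.54 TPM. Transcripts of other smooth muscle proteins were lower than those of actin and transgelin: Cnn1, calponin, held 89.0 ± 4.40 TPM, and Des, desmin, 2.25 ± 1.19 TPM. Actn1 (984 ± 35.3 TPM) and Vcl (504 ± 16.6 TPM) join actin to adhesions. Srf itself held 44.6 ± 2.71 TPM.

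Microtubule and intermediate filament genes showed 1 dominant member each. Of 20 tubulin genes 15 were expressed, and Tuba1a held 3280.3 ± 505 TPM, 7.31 ± 0.535 times Tuba1b (450.4 ± 74.6 TPM), with Tubb5 (824 ± 61.8 TPM) the leading beta chain. Tubulin genes have closely similar copies, and how shared reads were counted is not given, so the split between them is uncertain. The tubulin sum was 6629 TPM in replicate 1 and 4971 to 5575 TPM in the others. Among 15 intermediate filament genes other than keratins, 8 were expressed (53.3%, near the 49.8% of all genes). Vim at 7482 TPM exceeded the nuclear lamin Lmna (411 ± 42.1 TPM) and Nes, nestin (24.1 ± 1.69 TPM). Keratins, the filaments of epithelia, were nearly silent: 4 of 52 were expressed, 40 were listed at 0, and the sum was 20.7 ± 5.40 TPM. Krt19 (10.2 ± 2.68 TPM), Krt10 (3.83 ± 0.958 TPM) and Krt20 (2.63 ± 0.766 TPM) were the most abundant of these, and Krt8 and Krt14, which define simple and basal epithelia, were listed at 0.

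**Figure D3:**
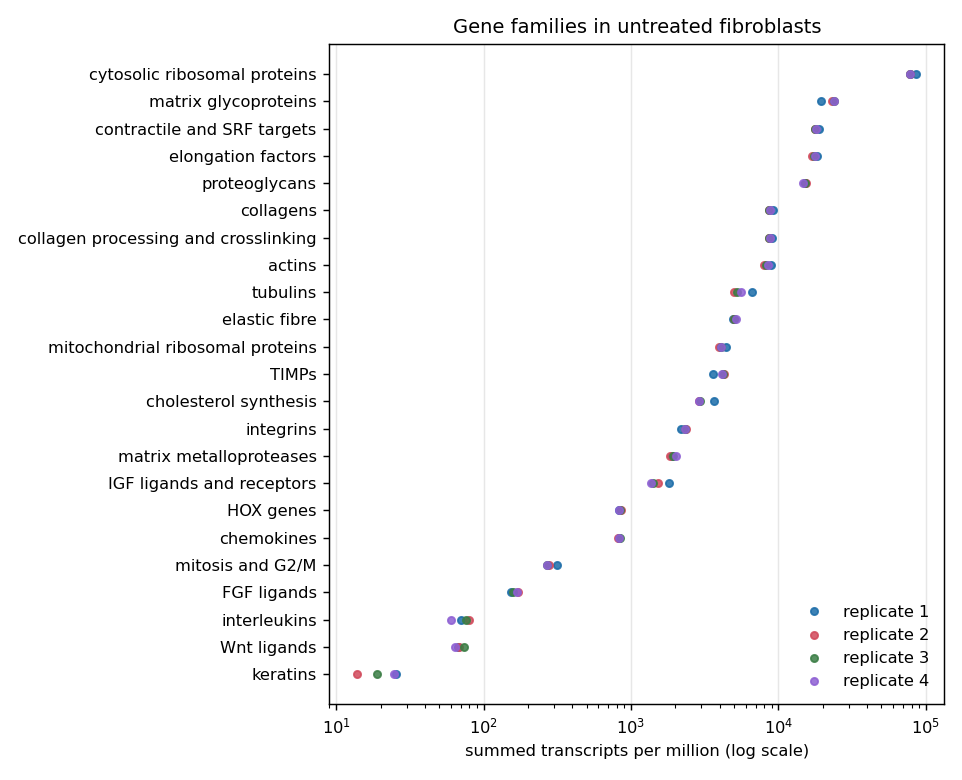
Summed TPM (log scale) of 23 gene families in untreated fibroblasts, with 1 point per library. Ribosomal proteins lead at 80009 TPM on average, matrix glycoproteins (22543 TPM) and contractile genes (18030.3 TPM) follow, and keratins lie lowest at 20.7 TPM.

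HOX genes encode the transcription factors that mark position along the body and, in the limb, from shoulder to digits. Genes of low paralog group number act toward the head, those of high number toward the tail and the tips of the limbs. Of 39 HOX genes 33 (84.6%) were expressed, at 838 ± 15.9 TPM over the 38 with a known length. Hoxd13, the gene of the hand and foot plate and of the tail end, was the most abundant, at 218 ± 23.2 TPM, with a level of 10.23 in replicate 1 and 10.49 to 10.51 in the others. Its paralog Hoxa13, also expressed in the distal limb, held 35.6 ± 6.02 TPM, and Hoxd13 exceeded it by 6.18 ± 0.656 times. Hoxc8, a gene of the thoracic trunk, followed with 118 ± 13.9 TPM. Hoxb9 (51.8 ± 4.97 TPM), Hoxc6 (43.8 ± 2.63 TPM), Hoxa10 (36.8 ± 1.61 TPM), Hoxa11 (35.4 ± 2.68 TPM) and Hoxc10 (30.3 ± 5.20 TPM) were next, and the last 3 of these do not differ from Hoxa13 beyond their spread.

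By paralog group, the high numbers held most HOX transcripts, a large part of them from Hoxd13. This gene held 218 ± 23.2 TPM of the 504 ± 31.0 TPM in groups 9 to 13. Groups 4 to 8 summed to 299.9 ± 19.7 TPM. Hoxa3, at a level of 6.50 ± 0.24, has no length and enters none of these sums. Groups 9 to 13 held 60.1% ± 2.85 of HOX transcripts from 13 expressed genes of 16, groups 4 to 8 held 35.8% ± 2.73 from 14 of 15, and groups 1 to 3 held 4.09% ± 0.432 from 6 of 8. The clusters were all in use, with summed abundances of 186 ± 4.85 TPM for Hoxa, 129 ± 6.73 TPM for Hoxb, 225 ± 16.4 TPM for Hoxc and 298 ± 21.9 TPM for Hoxd. Within Hoxd, Hoxd13 stood well above its neighbours Hoxd12 (19.6 ± 4.16 TPM) and Hoxd11 (17.7 ± 2.74 TPM). Within Hoxc the pattern was different: Hoxc8 and Hoxc6 led, while Hoxc11, Hoxc12 and Hoxc13 were at levels of 1.00 ± 0.81, 1.34 ± 0.96 and 4.49 ± 0.33. The genes that did not count as expressed were Hoxa6, Hoxb1, Hoxb13, Hoxc11, Hoxc12 and Hoxd1, and Hoxd1 alone was listed at 0. Genes of the trunk and of the far limb were measured in the same libraries, and bulk RNA cannot say whether they came from the same cells. HOX genes lie close together and have antisense partners, and the strand setting of the counting is not given, so reads from a gene and its antisense RNA cannot be told apart.

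**Figure D4:**
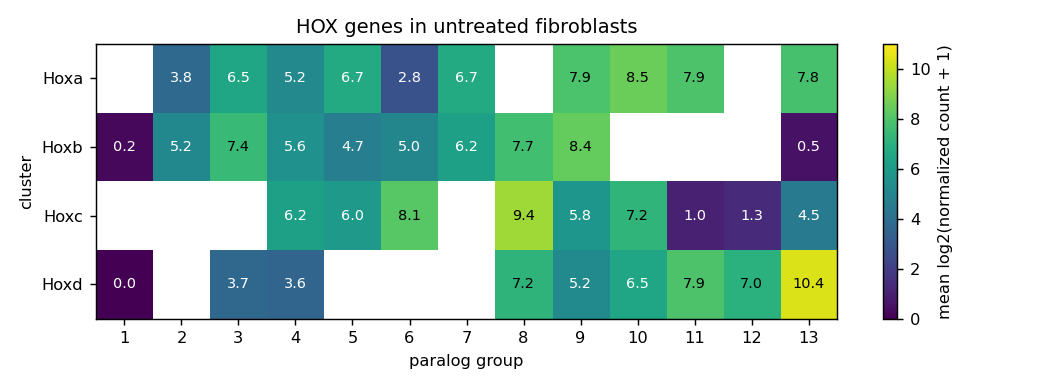
Mean log2 level over the 4 untreated libraries of each HOX gene, by cluster (rows) and paralog group (columns); white squares are not shown or have no such gene in the mouse. Hoxd13 (10.4) and Hoxc8 (9.4) are the brightest squares.

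Of 9 TALE homeobox genes, whose proteins bind DNA together with HOX proteins, 8 were expressed, among them Meis3 (52.3 ± 6.10 TPM), Pbx2 (43.2 ± 1.21 TPM) and Pbx3 (29.5 ± 1.54 TPM). Of 57 other homeobox genes 27 (47.4%) were expressed, near the 49.8% of all genes, and the paired-related pair stood first, with Prrx1 at 381 ± 8.92 TPM and Prrx2 at 181 ± 16.0 TPM. Both are regulators of limb and craniofacial mesenchyme. Limb genes followed: Msx1 of the limb tip (96.3 ± 26.2 TPM), Lhx9 of the limb bud (74.1 ± 3.89 TPM), Emx2 of the shoulder girdle and of the urogenital system (51.3 ± 5.38 TPM), Shox2 of the part of the limb nearest the trunk (36.8 ± 7.05 TPM) and En1 of the ventral limb ectoderm and of the trunk dermis (14.1 ± 1.33 TPM). Irx1 held 84.8 ± 12.8 TPM. Msx1 was higher in replicate 1 (9.43) than in the other libraries (8.62 to 8.79). The regulators Otx2 of forebrain, Nkx2-1 of lung and thyroid, and En2 and Gbx2 of the midbrain and hindbrain were listed at 0.

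Forelimb and hindlimb genes were both present. Tbx5, needed for the forelimb, held 28.1 ± 1.70 TPM, and Tbx4, needed for the hindlimb, 36 ± 2.88 TPM. Tbx5 was the lower in 4 of 4 libraries, at 0.731 to 0.803 of Tbx4. Pitx1, the hindlimb homeobox gene, was at 5.12 ± 1.03 TPM. Tbx15 of dermis and limb skeleton was the most abundant of 7 expressed T-box genes out of 16, at 163 ± 9.43 TPM, and Tbx18, of ureter mesenchyme and epicardium, held 29.8 ± 3.73 TPM. The mesoderm gene T was listed at 0. Among bHLH and zinc finger factors of mesenchyme, 8 of 15 (53.3%) were expressed, near the share over all genes, and of T-box and SOX genes 43.8% and 45%. The leading mesenchymal factors were Snai2 at 329 ± 17.7 TPM, Twist1 at 154 ± 5.68 TPM, Snai1 at 118 ± 11.6 TPM, Zeb1 at 59.0 ± 5.51 TPM and the tendon factor Scx at 39.8 ± 4.88 TPM. SOX genes (9 of 20 expressed) were led by Sox12 (26.1 ± 2.51 TPM), Sox9 of cartilage (22.7 ± 1.05 TPM) and Sox11 (5.51 ± 0.831 TPM), besides Sox4 at a level of 9.96 ± 0.02, for which no length was matched. Of 9 PAX genes, Pax1 (2.62 ± 0.940 TPM) and Pax9 (2.53 ± 0.277 TPM) of the sclerotome were expressed, and the muscle stem cell gene Pax7 was listed at 0. Gata2 (14.5 ± 2.12 TPM), Gata3 (12.9 ± 0.849 TPM) and Gata6 (6.54 ± 1.45 TPM) were the expressed members of 6 GATA genes (50.0%, near the share over all genes). The red cell gene Gata1 was listed at 0.

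Marker lists describe the cells but do not test their label, since they were fixed with earlier results of these data known. All 16 fibroblast and mesenchyme markers were expressed, with a median level of 12.52 and a summed abundance of 23719 ± 436 TPM. They included Thy1 (816 ± 39.8 TPM), Pdgfrb (264 ± 14.7 TPM) and the collagen receptor Ddr2 (254 ± 17.1 TPM), and the lowest of them was Fap, a protease of activated fibroblasts, at 4.25 ± 0.570 TPM. Of 12 markers of smooth muscle, pericytes and myofibroblasts 10 were expressed, the exceptions being the pericyte channel genes Kcnj8 and Abcc9. Of 96 markers in 14 lists for other cell types, 29 (30.2%) were expressed, against 49.8% of all genes, with a median level of 1.02. The share differed by list. It was 66.7% for macrophage and leukocyte, for fat, and for glia and neural crest, and 60.0% for cartilage. The other lists lay below 49.8%. None of 7 erythroid, 9 epithelial, 8 skeletal muscle or 5 liver markers counted as expressed. Defining genes at 0 included Cldn5 and Tie1 of endothelium, Krt8, Krt14, Esrp1 and Grhl2 of epithelium, Elavl3, Rbfox3 and Dcx of neurons, Ckm and Pax7 of muscle, Cd3e of T cells and Pou5f1, Zfp42 and Lin28a of pluripotent cells. Of the 9 pluripotent and germ cell markers 2 did count as expressed, at low levels: Sox2, also a gene of neural progenitors, at 4.76 ± 0.50 and Ddx4, a germ cell helicase, at 4.11 ± 0.52. Of 4 heart muscle markers 1 was expressed, Tnnt2, cardiac troponin T, at 4.03, 5.28, 4.05 and 4.23 in replicates 1 to 4.

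Some markers of other cells did appear. Macrophage and leukocyte markers were expressed in 8 of 12 cases and summed to 297 to 344 TPM over the 4 libraries. Lyz2, lysozyme, at 213 ± 21.3 TPM, and Cd68, a lysosomal protein, at 92.9 ± 8.06 TPM, made up most of that sum, while the defining Csf1r and Ptprc held 2.40 ± 0.612 and 1.29 ± 0.372 TPM. Stmn2, a tubulin-binding protein of growing axons, reached 477 ± 95.5 TPM, with a level of 10.71 in replicate 1 and 11.31, 11.31 and 11.33 in the others, although 5 of the 7 neuron markers, among them Snap25 and Nefl, did not count as expressed. Msln, mesothelin, held 129 ± 8.26 TPM, and the other 3 mesothelial markers, Upk3b, Wt1 and Lrrn4, were not expressed. Of 6 bone markers 2 were expressed. Spp1, given above with the matrix glycoproteins, was the most abundant marker of another cell type and held 1889.8 ± 640.3 TPM of the 3077 ± 779 TPM summed over all 14 lists. Runx2, the master regulator of bone, was at a level of 8.83 ± 0.14, while Alpl, the phosphatase of bone cells, had 1, 0, 1 and 5 reads, and cartilage showed Sox9 and Col2a1, with 4, 22, 23 and 12 reads of Acan. Fat markers were expressed in 4 of 6 cases, with Fabp4 at 65.3 ± 13.7 TPM, Lpl at 43.9 ± 5.02 TPM and Pparg at 37.3 ± 10.8 TPM, and Adipoq, the hormone of mature fat cells, had 1, 1, 0 and 1 reads. Pparg was lower in replicate 1 (6.81) than in the others (7.69 to 7.80). Of 6 neural crest and glia markers 4 passed the minimum, Sox10 (5.13 ± 1.44 TPM) among them. Tek (4.22 ± 0.604 TPM) and Kdr (1.21 ± 0.314 TPM) were the 2 endothelial markers that passed, with Pecam1 at 0, 4, 2 and 4 reads. Whether such values come from a few other cells or from the fibroblasts was not tested.

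Signals that mesenchyme sends and receives were described by family. Every one of 8 TGF-beta ligand and receptor genes was expressed, at 775 ± 14.9 TPM. TGF-beta is known as a main inducer of matrix genes, and among its ligands Tgfb3 (316 ± 12.4 TPM) and Tgfb2 (137 ± 7.00 TPM) were the most abundant. Tgfb1, the best studied ligand, held 53.3 ± 4.24 TPM, and Tgfb3 exceeded it by 5.94 ± 0.419 times. The receptor Tgfbr2 held 136 ± 5.91 TPM. Of 20 BMP and GDF ligands 8 were expressed (40.0%, against 49.8% of all genes). Bmp4 (233 ± 15.6 TPM) lay far ahead of Gdf11 (58.3 ± 2.55 TPM) and Bmp2 (11.4 ± 3.09 TPM). In the activin list Inhba, the activin A chain, held 719.8 ± 48.9 TPM and its antagonist Fst, follistatin, 132 ± 10.4 TPM, besides the follistatin-like Fstl1 at 1425 ± 61.2 TPM. The liver chains Inhbc and Inhbe were listed at 0.

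Fibroblast growth factor genes were expressed in part. Of 22 ligand genes 8 were expressed (36.4%, against 49.8% of all genes). Fgf7 (65.4 ± 6.37 TPM) and Fgf10 (34.4 ± 5.66 TPM), which mesenchyme sends to epithelium, led, followed by Fgf18 (30.7 ± 3.98 TPM). Fgf2, which fibroblasts respond to, held 4.17 ± 0.961 TPM, and Fgf4 and Fgf8, made by the ectoderm of the limb, were listed at 0. Of the receptors, Fgfrl1 (70.9 ± 8.33 TPM), Fgfr2 (44.8 ± 1.60 TPM) and Fgfr3 (1.79 ± 0.652 TPM) have a length, and Fgfr1, the mesenchymal receptor, was at a level of 11.29 ± 0.11 without one. Platelet-derived growth factor acts on fibroblasts through a pair of receptors, and Pdgfrb exceeded Pdgfra (70.4 ± 2.35 TPM) by 3.75 ± 0.279 times. Their ligands were Pdgfd (97.5 ± 12.7 TPM), Pdgfc (50.3 ± 3.46 TPM) and Pdgfa (32.3 ± 8.31 TPM), while the platelet ligand Pdgfb had 1, 6, 5 and 1 reads. All 5 VEGF ligands were expressed, and the lymphatic growth factor VEGF-D, named Figf in the files, held 238 ± 9.06 TPM, 4.00 ± 0.350 times Vegfa (59.7 ± 5.79 TPM), with Vegfb at 116 ± 9.49 TPM. In the EGF family Hbegf (53.9 ± 1.58 TPM), Nrg1 (39.8 ± 3.40 TPM) and Ereg (19.9 ± 4.70 TPM) were the leading ligands, and the receptors Erbb2 (21.1 ± 2.37 TPM) and Egfr (20.9 ± 0.532 TPM) did not differ beyond their spread. Areg, at levels of 6.04, 0.00, 5.79 and 2.63, was not steady, and its values were not whole reads in replicates 3 and 4.

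Of the insulin-like growth factors, the fetal one was far the more abundant. Igf2, the growth factor of the fetus, held 1146 ± 211 TPM, and Igf1, that of later growth, 8.32 ± 1.07 TPM, a ratio of 164, 123, 153 and 114 in replicates 1 to 4. The receptors Igf2r, which takes IGF2 out of circulation, and Igf1r, which signals, held 208 ± 7.73 and 147 ± 2.06 TPM. Of 19 Wnt ligands 6 were expressed at low abundance, led by Wnt5a (35.7 ± 2.18 TPM), Wnt16 (11.1 ± 0.648 TPM) and Wnt9a (9.49 ± 0.786 TPM), and Wnt1, Wnt3 and Wnt3a were listed at 0. Receptors were more abundant than ligands, with 8 of 10 Frizzled genes expressed at 362 ± 18.1 TPM and Fzd7 (106 ± 7.91 TPM), Fzd2 (78.1 ± 4.26 TPM) and Fzd1 (59.1 ± 2.51 TPM) in front. In the Hedgehog pathway 4 of 10 genes were expressed. Smo, the signalling component, held 207 ± 13.4 TPM and the repressor-forming Gli3 41 ± 2.90 TPM, ahead of Gli2 (7.58 ± 0.423 TPM). The ligand Shh was listed at 0, and the target gene Gli1 had 2, 0, 2 and 2 reads. Of 13 Notch pathway genes 8 were expressed, with the target Hes1 (74.5 ± 7.81 TPM), the ligand Jag1 (48.7 ± 2.56 TPM) and the receptor Notch2 (38.6 ± 3.14 TPM) leading and the endothelial ligand Dll4 listed at 0.

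Few genes for immune signals were expressed. Of 39 chemokine genes 12 were expressed, at 828 ± 9.61 TPM. Cxcl14 (214 ± 11.6 TPM) and Cxcl12, which holds blood stem cells in their niche (191 ± 7.85 TPM), were ahead of the monocyte attractants Ccl7 (137 ± 18.7 TPM) and Ccl2 (99.4 ± 6.45 TPM). Of 33 interleukin genes 5 were expressed and 21 were listed at 0, Il1a, Il1b and Il10 among them. Il17d (31.2 ± 3.62 TPM), Il18 (16.8 ± 4.06 TPM) and Il11 (9.09 ± 3.17 TPM) led. Il6, the inflammatory cytokine that fibroblasts make on stimulation, had 0, 0, 3 and 3 reads. No interferon gene of 18 was expressed, and 17, including Ifnb1 and Ifng, were listed at 0. The sensors were nevertheless present, with 8 of 12 Toll-like receptors expressed and Tlr4, the receptor of endotoxin, at 22.8 ± 3.69 TPM, above Tlr6 (12.9 ± 2.21 TPM) and Tlr1 (10.3 ± 1.30 TPM).

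Genes that start the cell cycle and genes that brake it were both abundant. Ccnd2 (586 ± 31.0 TPM) and Ccnd1 (491 ± 37.6 TPM), cyclins that drive cells into the cycle, led 8 expressed cyclins of 9, with Ccnd3 at 171 ± 15.5 TPM. Ccnd2 was the higher of the leading pair in 4 of 4 libraries. Cyclins of S phase and mitosis were lower, at 26.5 ± 2.49 TPM for Ccna2 and 7.02 ± 1.07 TPM for Ccnb1. Among 7 inhibitors of cyclin-dependent kinases, Cdkn1a, the p21 target of p53, held 1018 ± 36.9 TPM, 24.0 ± 2.52 times Cdkn1b (42.7 ± 3.69 TPM). Neighbouring inhibitor genes known for their part in replicative senescence were expressed, Cdkn2a at 262 ± 49.9 TPM and Cdkn2b at 238 ± 14.2 TPM. Cdkn2a was at a level of 9.18 in replicate 1 and 9.71 to 9.76 in the others. The gene encodes p16 and p19ARF from different first exons, and 1 value per gene cannot separate them. Trp53 itself held 134 ± 4.44 TPM, which was 0.539 ± 0.0350 of the abundance of Mdm2, its target and inhibitor, with Mdm4 at 68.3 ± 3.76 TPM and the retinoblastoma relatives Rbl2 and Rb1 at 35.2 ± 1.45 and 29.3 ± 2.81 TPM.

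The proliferation genes were on but modest. All 22 mitosis genes and 15 of 16 replication genes were expressed, with sums of 282 ± 20.7 and 281 ± 14.1 TPM. Tpx2 of the spindle (42.1 ± 3.40 TPM), Kif20a (29.5 ± 4.52 TPM) and Mad2l1 (27.8 ± 2.50 TPM) led the first list, and Mki67, the proliferation antigen, held 16.2 ± 1.31 TPM. Rrm2 (59.8 ± 2.55 TPM), Rrm1 (51.1 ± 2.82 TPM) and the sliding clamp Pcna (46.0 ± 5.53 TPM) led the second. Each of these sums was highest in replicate 1. Such sums cannot say which fraction of the cells was dividing. Among MYC and RAS genes 7 of 8 were expressed, with Rras (202 ± 20.9 TPM), Nras (119 ± 3.17 TPM), Rras2 (109 ± 11.1 TPM) and Myc (61.8 ± 6.68 TPM). Tert, the catalytic subunit of telomerase, had 11, 35, 38 and 51 reads and 3.08 ± 0.723 TPM, against 21.5 ± 3.10 TPM for its partner Dkc1.

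Imprinted genes are read from 1 parental copy, and H19 and Igf2 were the most abundant of those listed. Of 16 paternally expressed genes 13 were expressed, at 2049 ± 245 TPM, with Igf2, Plagl1 (291 ± 21.7 TPM), Mest (221 ± 22.9 TPM) and Ndn (173 ± 24.0 TPM) in front. Of 10 maternally expressed genes 9 were expressed, at 3179 ± 419.5 TPM. H19, the noncoding RNA next to Igf2 that shares its enhancers, held 2189 ± 417 TPM and was at levels of 14.10, 13.58, 13.56 and 13.50 in replicates 1 to 4. Igf2 was likewise highest in replicate 1, and H19 over Igf2 stayed at 1.78 to 1.97 across the libraries. Grb10, a brake on growth factor receptors, held 357 ± 9.81 TPM, Cdkn1c 154 ± 6.83 TPM, and Meg3 with its paternally read neighbour Dlk1 84.4 ± 1.79 and 75.0 ± 4.30 TPM. Magel2 and Snrpn were listed at 0. The Snrpn value is uncertain, since that gene shares its transcript with another.

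H19 was also the leading long noncoding RNA of 13 expressed among 19 listed. Malat1, a nuclear RNA of most cells, held 142 ± 4.37 TPM, Gas5 131 ± 20.9 TPM, and Dnm3os, the host of microRNA genes in mesenchyme, 117 ± 8.01 TPM. Neat1, the scaffold of paraspeckles, was at 58.9 ± 6.44 TPM. Transcripts specific to each sex were present in the same libraries: Xist, the RNA that silences an X chromosome in female cells, was at levels of 11.27, 11.50, 11.45 and 11.48, and the Y-linked Ddx3y at 8.46, 8.52, 8.35 and 8.59. Eif2s3y (a level of 8.33 ± 0.16), Kdm5d (5.15 ± 0.819 TPM) and Uty (3.56 ± 0.632 TPM) of the Y chromosome were expressed in addition. The ratio of Xist to Ddx3y in TPM, 1.87, 2.11, 2.29 and 1.99, varied little between the libraries.

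Protein synthesis took the largest share of any family. The 78 expressed genes of 84 for cytosolic ribosomal proteins held 80009 ± 4262 TPM, 8.00% of transcripts. The sum was 86388 TPM in replicate 1 and 77488 to 78112 TPM in the others. Rps26, Rps12 and Rps24 were the most abundant, and Rpl4 and Rpl19 followed at 3276 ± 124 and 3274 ± 75.3 TPM. A few members were listed near 0 although every cell needs them: Rpl26 had no read, and Rpl30 and Rpl34 were at mean levels under 2. Ribosomal proteins have many near-identical copies in the genome, and Eno1, the main glycolytic enolase, which also has such copies, was listed at 0 too. How reads that fit several places were counted is not given, so a 0 for such genes does not show that they are off. All 77 mitochondrial ribosomal protein genes were expressed, at a lower sum of 4119 ± 202 TPM, led by Mrpl42 (217 ± 16.7 TPM), Mrpl52 (197 ± 23.8 TPM) and Mrpl32 (175 ± 17.8 TPM). The elongation factors held 17605 ± 616 TPM, of which Eef1a1 made up most, 3.97 ± 0.173 times Eef2 (3264 ± 79.2 TPM), with Eef1b2 at 631 ± 43.0 TPM. Eef1a2, its counterpart in muscle and neurons, had 1, 3, 5 and 13 reads. Transcripts encoded by mitochondrial DNA were not analysed here.

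Several steps of glycolysis had 1 dominant gene. Pkm, pyruvate kinase of nearly all tissues but liver, held 2137 ± 20.5 TPM, and Pklr, the form of liver and red cells, was listed at 0. Gapdh (1198 ± 86.5 TPM), Gpi1 (311 ± 14.6 TPM), Pgk1 (293 ± 19.3 TPM), Tpi1 (291 ± 12.1 TPM) and Aldoa (693 ± 36 TPM) stand for the other steps of glycolysis. Hk1 (75.2 ± 2.89 TPM) exceeded Hk2 (6.03 ± 0.988 TPM) by 12.7 ± 1.81 times. The phosphofructokinases Pfkm (43.3 ± 0.660 TPM), Pfkl (34.2 ± 1.61 TPM) and Pfkp (18.8 ± 1.65 TPM) were all in use. Slc2a1 was the most abundant glucose transporter transcript (46.2 ± 2.48 TPM), with Slc2a8 at 16.6 ± 1.69 TPM and Slc2a10 at 7.59 ± 1.34 TPM, and Slc2a2 of liver and pancreas was listed at 0. The lactate dehydrogenases Ldha (245 ± 14.2 TPM) and Ldhb (188 ± 8.95 TPM) stood at a ratio of 1.31 ± 0.106. Since the handling of reads with several matches is not given, values of glycolysis genes with near-identical copies, and ratios between them, are uncertain. Of the expressed enolases, Eno3 (26.9 ± 5.74 TPM) and Eno2 (25.0 ± 1.24 TPM) did not differ beyond their spread. Eno1, the main glycolytic enolase, was listed at 0, a value left uncertain by its near-identical copies. Which enolase led in these cells is therefore not known.

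All 21 genes of cholesterol synthesis and its control were expressed, at 3092 ± 367 TPM. The sum was 3639 TPM in replicate 1 and 2882 to 2956 TPM in the others. Fdps (645 ± 89.7 TPM), Cyp51 (321 ± 48.9 TPM) and Nsdhl (267 ± 23.6 TPM) led. Iron stores and metal buffers were abundant: Fth1 exceeded Ftl1 (2506 ± 235 TPM) by 1.68 ± 0.263 times, and Mt1 (877 ± 22.2 TPM) exceeded Mt2 (312 ± 26.3 TPM) by 2.82 ± 0.224 times. Ferritin genes also have near-identical copies. Of 104 cytochrome P450 genes, which oxidise drugs, steroids and lipids, 16 were expressed and 68 were listed at 0. Cyp1b1, the aryl hydrocarbon receptor target of stromal cells, held 255 ± 6.83 TPM, above Cyp4v3 (79.4 ± 15.1 TPM) and Cyp20a1 (68.9 ± 9.48 TPM). Cyp1a1, the other classic target of that receptor, was listed at 0 in the 4 untreated libraries.

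The spread over the libraries was small for most genes but not for all. Among 8593 genes that averaged a normalized count of 100 or more, the largest SDs came from 5 genes that replicate 4 held far above the rest. Foxf2, a forkhead factor of gut and craniofacial mesenchyme, was at 4.18, 5.00, 5.39 and 13.33 in replicates 1 to 4. Scrg1, a small secreted protein of cartilage and nervous tissue, was at 0.00, 0.00, 1.64 and 11.83, that is at 0, 0, 3 and 5732 reads. Camk2b, a calcium-dependent kinase of neurons, was at 3.87, 3.97, 3.62 and 12.08, Rapgefl1, a guanine exchange factor relative, at 5.56, 5.00, 4.97 and 11.89, and Scarb1, the receptor of high-density lipoprotein, at 9.06, 8.79, 8.83 and 11.75. For each of the 5, replicate 4 lay at least 2 above the nearest other library on the log2 scale. No other gene of the 8593 had such a gap upward in any library. Foxf2, Scrg1, Camk2b and Rapgefl1 reached the minimum of 100 only through replicate 4, so this choice of genes favours upward gaps. Genes with a lower mean were not searched for such gaps. For the 5 genes that replicate 4 held far above the rest, a mean over 4 libraries describes none of the libraries. In the build of the files they lie far apart: Scrg1 on chromosome 8 (59934720 to 59956382), Foxf2 on 13 (31717685 to 31723272), Camk2b on 11 (5869647 to 5966365), Rapgefl1 on 11 (98698099 to 98715011) and Scarb1 on 5 (125757457 to 125821464).

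Replicate 1 was the other library that stood out, more often below the rest than above. It was lowest by at least 1 on the log2 scale in 13 of the 8593 genes, and lowest by at least 0.5 in 124, against 14, 2 and 3 genes for replicates 2, 3 and 4. It was highest by at least 0.5 in 58. Prl2c2, proliferin, a prolactin relative made by growing mouse cells, was at 5.93 in replicate 1 and 8.15, 8.50 and 8.08 in the others. Slc5a7, a choline transporter, was at 6.81, 8.85, 8.78 and 8.76. Mmp3, Spp1, Akr1c14, Epb41l4b, Dtx4, Zfp697, Rgag4, Pdk4, AI607873, Pde5a and Ndrg2 were further genes of large SD in which replicate 1 was lowest. Ptpra, a receptor tyrosine phosphatase, split the libraries otherwise, at 9.04 and 8.71 in replicates 1 and 4 and 10.61 and 10.60 in replicates 2 and 3. Replicate 1 also had 4865169 reads, fewer than any other library, and the part of depth in these differences was not tested.

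**Figure D5:**
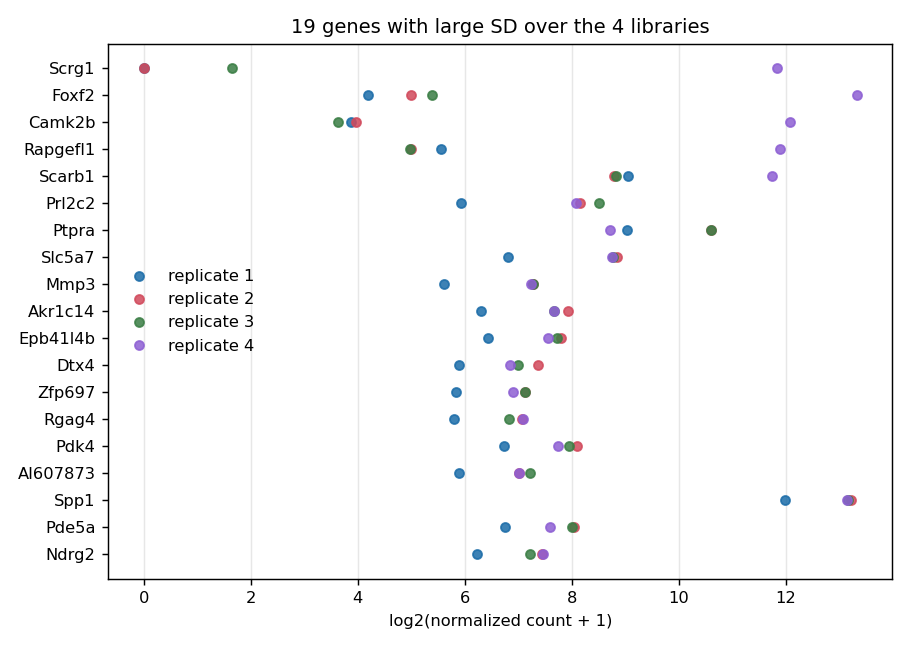
Log2 level in each untreated library of 19 genes with the largest SDs among genes that averaged a normalized count of 100 or more. Replicate 4 lies far to the right for Scrg1, Foxf2, Camk2b, Rapgefl1 and Scarb1, and replicate 1 lies to the left of the other libraries for 14 of the 19 genes, Foxf2 included.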

How the data were processed

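A kit for stranded mRNA was used, per the labels' protocols. The submitters' processing notes name the tools STAR, HTSeq, DESeq2, cutadapt and FastQC and the build mm9, while versions, strand setting and the handling of reads with several matches are not stated. The authors deposited log2 values per gene and library, which the values show to be log2 of a normalized count plus 1. Whole reads were recovered from the steps between values: up to 500 reads, 99.97% to 100.00% of values came within 0.05 of a whole read, and the exceptions were Efna1, Areg and Lipo1. Groups came from the sample titles.

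From the deposited values, means, SDs and TPM were computed in Python 3.11.15 with pandas 2.3.3 and numpy 2.4.6. Exon lengths came from GENCODE vM1 on NCBIM37, which is mm9, for 22097 genes (97.8% of those expressed), 20632 matched by symbol and 1465 by an older name. Of the listed genes, 24350 had an ID in RefSeq's table of GRCm38.p6, which restored 27 names turned into dates. The steps were tested on simulated data. No test between groups was made. Families, markers and promoters, like the choice of the untreated cells, were fixed with earlier results of these data known. Genes named are the 30 highest by level, the 20 highest by TPM, family members (at least the leading 3 expressed, and defining genes listed at 0) and the 20 with the largest SD; a few genes under this rule are not reported here. Alternatives were other scalings, minimum counts, pseudocounts and lengths, and leaving out each library.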

Additional observations from a re-analysis of the deposited data

Results flagged for a closer look

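In 53 of the values described, 45 genes of 411 named and 8 families of 69, the library farthest from the others lay beyond Dixon's 95% critical value for 4 samples. Chance alone does so in about 1 of 20 groups, and the 20 genes with the largest SD were named for their spread. Replicate 1 was the library apart in 38 of the 53, replicate 4 in 9, replicate 2 in 5 and replicate 3 in 1. Over 8593 genes that averaged a normalized count of 100 or more, 547 (6.37%) were past the same value, 344 of them through replicate 1. Replicate 1 is also the library with the fewest reads, and the part of depth in this was not tested.

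Replicate 1 was apart on the low side with log2 levels of 11.98 for Spp1 (13.14 to 13.22 in the other 3 libraries), 5.61 for Mmp3 (7.23 to 7.28), 5.93 for Prl2c2 (8.08 to 8.50), 6.81 for Slc5a7 (8.76 to 8.85), 6.31 for Akr1c14 (7.67 to 7.93), 5.89 for AI607873 (7.02 to 7.22) and 6.43 for Epb41l4b (7.56 to 7.79). Smaller gaps in the same direction were found at 6.81 for Pparg (7.69 to 7.80), 10.71 for Stmn2 (11.31 to 11.33), 9.18 for Cdkn2a (9.71 to 9.76), 5.75 for Uty (6.24 to 6.30), 8.23 for Tbx18 (8.53 to 8.59), 10.23 for Hoxd13 (10.49 to 10.51), 12.00 for Col4a1 (12.22 to 12.25), 14.49 for Timp2 (14.70 to 14.72), 12.10 for Ccnd1 (12.28 in each), 8.05 for Hoxc6 (8.16 to 8.18) and 11.92 for Cxcl12 (11.99 in each).

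Replicate 1 was apart on the high side for the imprinted RNA H19 at 14.10 (13.50 to 13.58 in the others), the paraspeckle RNA Neat1 at 11.87 (11.50 to 11.55), elastin, Eln, at 11.42 (10.84 to 10.87), Pdgfa at 8.53 (7.75 to 7.87), Irx1 at 9.14 (8.64 to 8.72) and S100a4 at 13.11 (12.77 to 12.83). The sterol gene Nsdhl at 11.15 (10.86 in each), the mitochondrial ribosome genes Mrpl42 at 8.74 (8.45 to 8.49) and Mrpl52 at 7.99 (7.58 to 7.63), and Tubb5 at 12.97 (12.70 to 12.73) lay on the same side. Gaps were small for Cxcl14 at 10.12 (9.90 to 9.94), Pkm at 13.73 (13.66 to 13.67) and Myh9 at 13.86 (13.79 to 13.80). Few reads stand behind Actc1 at 1.44 and Lrrn4 at 2.97, both 0.00 in the other libraries. By family, replicate 1 had 86388 summed TPM of cytosolic ribosomal proteins (77488 to 78112 in the others), 3639 TPM of cholesterol synthesis (2882 to 2956), 3806 TPM of maternally expressed imprinted genes (2918 to 3001), 3669.9 TPM of long noncoding RNAs (2688 to 2773) and 302 TPM of replication genes (273 to 277).

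In replicate 4 the gaps were the widest of those named: Foxf2 was at 13.33 (4.18 to 5.39 in the others), Camk2b at 12.08 (3.62 to 3.97), Rapgefl1 at 11.89 (4.97 to 5.56), Scrg1 at 11.83 (0.00 to 1.64) and Scarb1 at 11.75 (8.79 to 9.06). Replicate 4 was also apart for hexokinases at 87 TPM (79.6 to 80.8), for interferon genes at 0.392 TPM (0 in each), and on the low side for Ccl2 at 8.03 (8.22 to 8.25) and Tek at 5.34 (5.77 to 5.84). Replicate 2 was apart for gap junction connexins at 1122 TPM (1022 to 1037), Bmp2 at 7.20 (6.46 to 6.57), Tnnt2 at 5.28 (4.03 to 4.23), the barely detected Abcc9 at 3.50 (2.45 to 2.62) and Hoxb1 at 0.90 (0.00 in each). Replicate 3 was apart for Sox12 at 7.90 (8.19 to 8.21).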

How the results depend on the processing

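Without each replicate in turn, expressed genes numbered 12171 to 12196, expressed HOX genes 32 to 33 and expressed markers of other cell types 28 under each omission, the 100 highest genes held 20.9% to 21.0% of counts, collagens 0.871% to 0.887% of transcripts and ribosomal proteins 7.79% to 8.08%. The marker count moved most with the minimum, to 51 at a mean count of 1 or more and 13 at one of 50 or more, since most of these markers have few reads. HOX genes numbered 36 and 22, and expressed genes 14515 and 10032, at the same minimums. The transcript shares depend on length: collagens held 0.992% and ribosomal proteins 8.69% with the longest transcript, and 2.25% and 3.17% of reads with no length scaling. Without ribosomal protein genes the 100 highest held 21.5%. Scaling by the library total moved the median level of expressed genes by 0.24, a shift that by construction all genes of a library share apart from the pseudocount, and centring on the median moved it by 0.00. Of single genes, the mean level of Foxf2 was 4.86 without replicate 4 and 6.98 over all libraries, and the mean level of Scrg1 was 0.55 and 3.37. A total without mitochondrially encoded genes was not run, since none was analysed here. No paired analysis was possible because the results come from no test and use 1 group. Depth limits the calls at the low end, where 3 reads in replicate 1 equal a normalized count of 5.13.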
